A study of Mus musculus with 35 samples.

Results

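Cytosolic ribosomal protein genes encode the proteins of the 40S and 60S subunits of the ribosome, and their mRNA was measured here in CD45+ve microglia of the mouse brain at P6, P15 and 8 weeks. Members were chosen by gene symbol (Rps or Rpl followed by a number, Rplp0, Rplp1, Rplp2 or Rpsa) among protein-coding genes, and by a level of at least 0.5 CPM (fragment counts scaled to library size) in at least 5 mice. Of 80 symbols matched, 78 passed that filter, 31 of the small and 47 of the large subunit, among 17612 genes tested of 55401 counted. Rpl10l and Rpl3l did not pass. All mice were wild-type C57BL/6 of both sexes with no treatment, 1 library was made per mouse, and the cells came from whole brain by immunopanning on an antibody against CD45. CD45 is carried by other leukocytes too, so the libraries may hold more than microglia. By qPCR of a P6 mouse the study found microglial markers enriched. From the RNA-seq it estimated a small average fraction of monocytes and macrophages. At P6 there were 4 females and 6 males, and each later age had 6 mice of either sex. The study removed 1 mouse as an outlier without naming it, and P6 female 6 is the 1 mouse missing from its plotted data. P6 female 6 was left out of the 34 mice compared, so statements on every P6 mouse do not cover it. Its values are given beside many, but not all, of the results they touch.

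Ribosomal proteins assemble on ribosomal RNA in the nucleolus, and the finished subunits carry out translation in the cytosol. Their mRNAs belong to the TOP class, which starts with a C and a run of pyrimidines at the 5′ end and whose translation is tied to growth signalling through mTOR and LARP1. Cells that divide and grow make many ribosomes, and microglia divide in the first postnatal weeks and then become a slowly renewed resident population.

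Depth ran from 23316107 to 38965078 fragments counted on genes per mouse. The labelled cell type was checked against 6 microglial markers (Tmem119, Cx3cr1 and others), all detected, whose summed level was 6210 to 11500 CPM at P6, 12800 to 26800 CPM at P15 and 19000 to 26400 CPM at 8 weeks. Markers of other cells moved with age as well. All 9 markers of neural progenitors and immature neurons were lower at 8 weeks than at P6, and their sum was 661 to 2040 CPM at P6, 124 to 845 CPM at P15 and 89 to 206 CPM at 8 weeks. Of 6 neuronal markers 4 were lower and 1 higher, with sums of 276 to 926, 89.5 to 693 and 48.4 to 212 CPM. All 5 markers of dividing cells were lower, with sums of 460 to 772, 55 to 136 and 11 to 20 CPM. Of other CD45+ve cells, 4 of 9 markers of border macrophages and monocytes were lower and 2 higher (724 to 1580 CPM at P6, 366 to 719 CPM at 8 weeks), while all 6 lymphocyte markers were higher but stayed at sums of 2.51 to 44.9 CPM over all mice. Neutrophil markers were higher in 3 of 5 (medians of 22.2 and 74.6 CPM at P6 and 8 weeks). Among other brain cells, astrocyte markers were higher in 3 of 5 and lower in 1 (medians of 523, 1140 and 975 CPM at P6, P15 and 8 weeks), endothelial markers were higher in 2 of 4 (59.7, 127 and 129 CPM), and oligodendrocyte markers were lower in 3 of 6 and higher in 3, with a peak at P15 (411, 1270 and 451 CPM). The sum of the erythroid markers was also highest at P15 (medians of 2120, 5240 and 2050 CPM). None of these markers was at 0 in every mouse. The neural markers named below are the neuronal and progenitor lists together, and the part of any of these shifts in the results below was not tested unless a value is given. In bulk samples, fewer cells of a type and less RNA per cell cannot be told apart.

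The ribosomal protein genes took a smaller part of the microglial mRNA at each later age. They held 4.06% ± 0.26 of counted fragments at P6 (SD, n = 10), 3.03% ± 0.419 at P15 (SD, n = 12) and 2.09% ± 0.382 at 8 weeks (SD, n = 12). At P6 the share ran from 3.44% to 4.41% with a median of 4.06%. At P15 it ran from 2.0% to 3.56% with a median of 3.19%, and at 8 weeks from 1.6% to 3.04% with a median of 2.01%. P6 and 8 weeks did not overlap, whereas P15 overlapped with both. P6 female 6, not among these P6 mice, had 2.72%, below the highest 8-week mouse. This share does not depend on scaling between libraries and was given no test, because it is a sum over chosen genes.

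**Figure D1:**
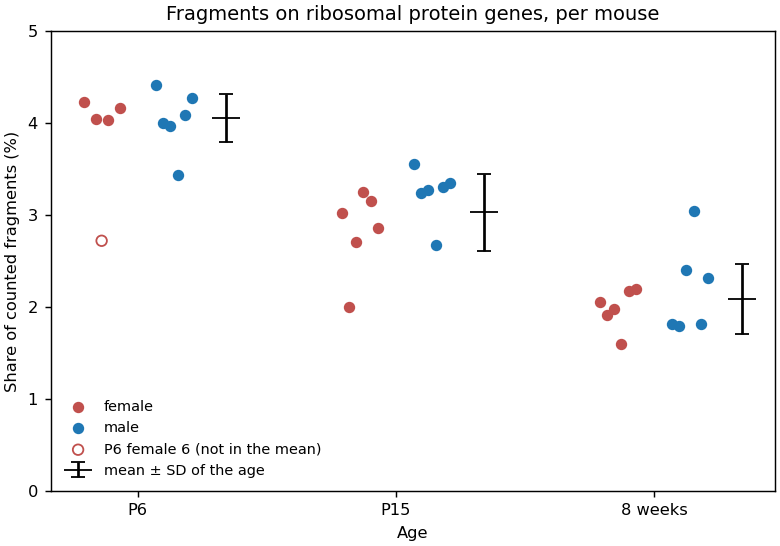
Share of counted fragments that fell on the ribosomal protein genes (vertical axis, %) in each mouse, by age and sex, with the mean and SD of each age in black and P6 female 6 as an open circle. The 10 P6 mice lie between 3.44% and 4.41%, above all 12 mice of 8 weeks, of which 8 weeks male 4 is the highest at 3.04%.

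Single libraries stood apart on this share. P15 female 2 had 2.0% against 2.67% in the next P15 mouse and was the lowest P15 mouse for 73 of the 78 genes. In that mouse the neural markers summed to 1280 CPM and mitochondrially encoded genes took 1.97% of fragments, the highest of P15. P15 male 1 had more neural markers (1540 CPM) and fewer microglial markers (12800 CPM) than any other P15 mouse, but the highest share of that age (3.56%) and the lowest mitochondrial share (0.796%). In 8 weeks male 4 the share was 3.04% against 2.40% in the next mouse of that age, and 76 of the 78 genes were highest there. Mitochondrially encoded genes took 0.882% of its fragments, the lowest at 8 weeks. P6 male 4 was the lowest P6 mouse for 75 genes, with a share of 3.44%. P6 female 6 had 2.72%, 3840 CPM of neural markers and 2770 CPM of microglial markers. The part of cell mixture or RNA quality in these values was not tested, and results that rest on 1 of these libraries are given with and without it.

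The question over the whole span was how the mRNA of 8-week microglia differed from that of P6 microglia. Nearly all ribosomal protein genes fell. At an FDR below 0.05, 74 of 78 were lower at 8 weeks and 0 were higher, beside 36.6% of all tested genes lower and 37.8% higher. No member was higher at an unadjusted p under 0.05 either, and limma-voom and DESeq2 also gave 0. The median log2FC of the members was -0.79, a fall of 1.73-fold, and that of all genes 0.04. The changes were even across the family, with quartiles of -0.98 and -0.63. With scaling by library size alone the members' median was -0.94 and that of all genes -0.10.

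**Figure D2:**
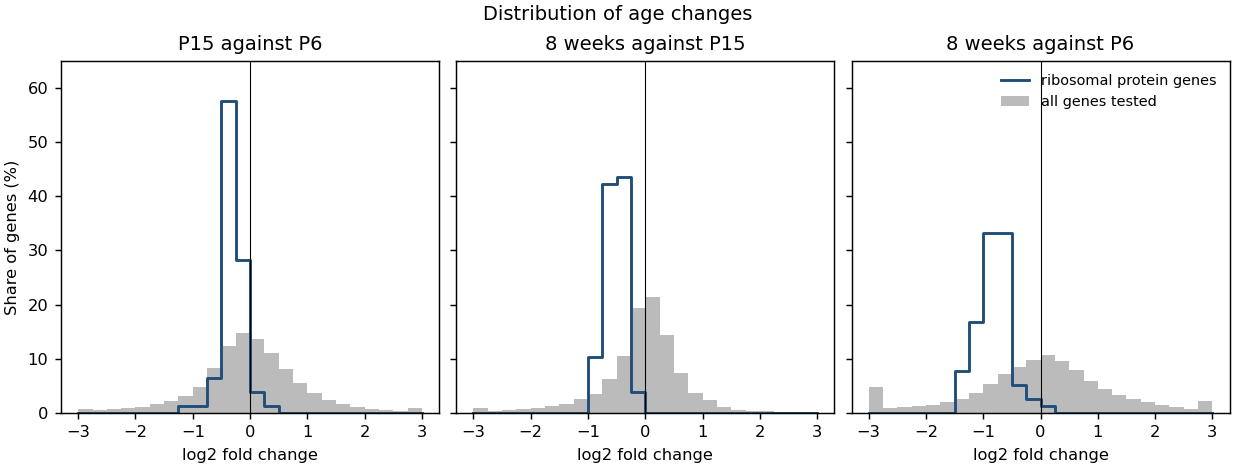
Distribution of log2 fold changes (horizontal axis, values beyond 3 in the end bins) as the share of genes in each bin (vertical axis, %), for all 17612 genes tested in grey and the 78 ribosomal protein genes as a blue line, in each age comparison. The members form a narrow peak to the left of 0, with medians of -0.32 from P6 to P15, -0.50 from P15 to 8 weeks and -0.79 over the whole span.

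Few of these falls were large. With the stricter test of a change beyond 2-fold (glmTreat, FDR below 0.05), 8 members passed, beside 12.4% of all genes lower. Those 8 were Rpsa, Rps2, Rps27l, Rps19, Rps26, Rpl32, Rpl35 and Rpl15. The count was 17 with scaling by library size alone and 5 with DESeq2, fits for which the share of all genes beyond 2-fold is not given here. The levels of 17 members did not overlap, with every 8-week mouse below every P6 mouse, beside 14.8% of all genes. Single libraries moved that number. Without 8 weeks male 4 it was 62 of 78, beside 17.2% of all genes, and without P6 male 4 it was 41, beside 15.4%. With P6 female 6 included only 3 members (Rps26, Rpl15 and Rps27l) were separate, beside 12.6%.

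With the mean log2 CPM of the neural markers as a covariate, 75 members were lower at 8 weeks, beside 23.5% of all genes in that fit. Beyond 2-fold 38 members were lower, and the share over all genes for that count is not given here. The median log2FC was -1.47 for the members and 0.08 for all genes. The marker level had no overlap between P6 (4.75 to 6.47) and 8 weeks (1.83 to 3.43), so no mouse of one age had a marker level found at the other.

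The largest falls were in proteins of the small subunit. Rpsa (ENSMUSG00000032518, GRCm38 chr9:120127689-120132369) encodes a protein that sits on the back of the 40S subunit and is also known as a laminin receptor. Its level was 1110 CPM in the lowest P6 mouse, 1300 at the median and 1520 in the highest. At 8 weeks it was 351, 429 and 819 CPM. All 12 mice of 8 weeks lay below every P6 mouse, and the log2FC was -1.45 (SE 0.12, FDR 2.27e-12). P6 female 6, not among those P6 mice, had 789 CPM, which lies within the ranges of both later ages and below the 819 CPM of 8 weeks male 4.

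Rps2 (ENSMUSG00000044533, chr17:24718116-24721929) encodes a protein near the mRNA entry channel of the 40S subunit. It had 821, 1040 and 1170 CPM at P6 in the lowest, median and highest mouse, and 288, 330 and 629 CPM at 8 weeks. P6 female 6 had 627 CPM. The 10 P6 mice compared did not overlap with 8 weeks and the log2FC was -1.44 (SE 0.118, FDR 1.74e-12).

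Rps27l (ENSMUSG00000036781, chr9:66946086-66949516) is a copy of Rps27 that is known as a p53 target. It was a minor transcript, at 35.5 to 46.6 CPM at P6, 12.5 to 28.2 CPM at P15 and 9.59 to 22.4 CPM at 8 weeks. Its log2FC over the whole span was -1.42 (SE 0.118, FDR 2.49e-12). Rps19 (chr7:24884371-24889806), mutated most often in Diamond-Blackfan anaemia, fell from a median of 369 to 133 CPM (log2FC -1.34, SE 0.121, FDR 1.7e-11). Rps26 (chr10:128624534-128626747), which lies at the mRNA exit channel, fell from 464 to 171 CPM (log2FC -1.32, SE 0.106, FDR 1.11e-12). All 12 mice of 8 weeks lay below the P6 range for each of these 3 genes. P6 female 6, at 23.4, 200 and 304 CPM, was above all 8-week mice for Rps27l and Rps26 but not for Rps19.

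Of the large subunit, Rpl32, Rpl35 and Rpl15 passed the 2-fold test. The level of Rpl32 was 454 to 715 CPM at P6 and 181 to 406 CPM at 8 weeks (log2FC -1.29, SE 0.123). Rpl35, a protein at the nascent peptide exit, had 313 to 498 CPM and then 117 to 282 CPM (log2FC -1.25, SE 0.12). Rpl15 had 300 to 396 CPM and then 115 to 232 CPM (log2FC -1.24, SE 0.102). Each of these ranges was separate from the other age, and P6 female 6, at 311, 237 and 240 CPM, was above all 8-week mice for Rpl15 alone.

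**Figure D3:**
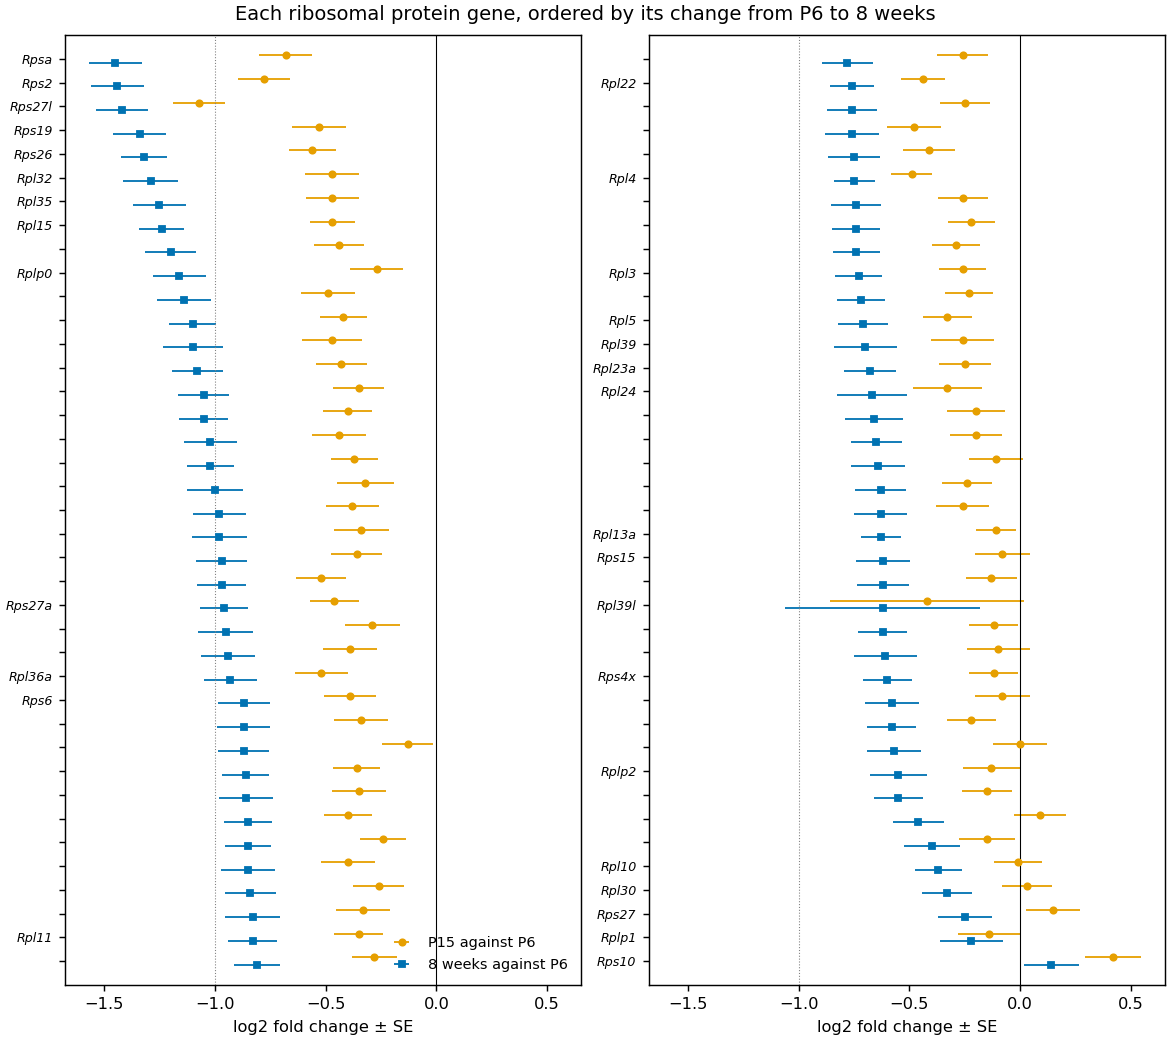
Log2 fold change with its standard error (horizontal axis) of each of the 78 ribosomal protein genes, ordered by the change from P6 to 8 weeks, with names for genes described in the text. Blue squares (8 weeks against P6) run from -1.45 for Rpsa to 0.14 for Rps10, orange circles (P15 against P6) lie to the right of the square for all 78 genes, and the dotted line marks a 2-fold fall.

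The annotated start regions of the 5 genes that fell most, and of Rps27, which changed little, are shown. Members with different changes can so be read side by side. Each covers 25 bases before and 50 bases from the start of the RefSeq transcript on GRCm38.p6, 5′ to 3′ on the strand of the gene, with the pyrimidine motif CTTTCC in capitals.
Rpsa, chr9:120127741-120127815, plus strand: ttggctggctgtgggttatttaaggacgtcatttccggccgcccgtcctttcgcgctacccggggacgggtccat
Rps2, chr17:24720038-24720112, plus strand: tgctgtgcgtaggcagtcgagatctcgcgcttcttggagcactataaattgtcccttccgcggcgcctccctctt
Rps27l, chr9:66946061-66946135, plus strand: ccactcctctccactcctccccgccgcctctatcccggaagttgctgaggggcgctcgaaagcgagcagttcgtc
Rps19, chr7:24884567-24884641, plus strand: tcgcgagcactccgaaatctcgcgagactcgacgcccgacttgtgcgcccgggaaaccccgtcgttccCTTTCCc
Rps26, chr10:128626457-128626531, minus strand: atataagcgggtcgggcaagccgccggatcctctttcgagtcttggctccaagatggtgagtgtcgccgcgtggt
Rps27, chr3:90213599-90213673, minus strand: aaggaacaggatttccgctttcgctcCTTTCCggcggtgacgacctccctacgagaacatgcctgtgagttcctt
CTTTCC occurred once in Rps19 and once in Rps27. RefSeq start regions were matched for 58 of the 78 members. In this 75-base window on the strand of the gene, 18 of 58 members (31.0%) held CTTTCC, against 4.09% of 27025 genes with a start region. Over the whole 300 bases the figures were 43.1% and 16% on the strand of the gene, and 53.4% and 29.3% on either strand. A match is a description of the letters and not a mapped start or a binding site. Of the windows shown, only that of Rps27 has a C and a run of pyrimidines at the annotated start. Whether the annotated starts are the 5′ ends used in these cells was not tested.

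The stalk of the large subunit, which recruits elongation factors, is built from the proteins of Rplp0, Rplp1 and Rplp2, of which the first and last were lower at 8 weeks than at P6 and Rplp1 did not pass the test. Rplp0, the base of the stalk, had 1120 to 1650 CPM at P6 and 481 to 1090 CPM at 8 weeks, ranges that did not overlap (log2FC -1.16, SE 0.12, FDR 3.93e-10), though P6 female 6 had 865 CPM. Rplp2 had 343 to 515 CPM and then 205 to 503 CPM, with 9 of 12 mice below the P6 range (log2FC -0.55, SE 0.128, FDR 0.000278). Rplp1 had 699, 1000 and 1260 CPM at P6 in the lowest, median and highest mouse, 447, 912 and 1270 CPM at P15, and 571, 808 and 1410 CPM at 8 weeks. The 3 ages of Rplp1 overlapped almost wholly, and its log2FC from P6 to 8 weeks was -0.22 (SE 0.141, FDR 0.16). The highest of those values was 8 weeks male 4, and without it the log2FC was -0.32 (FDR 0.0258). Rplp1 also passed without P6 male 4 (log2FC -0.30, FDR 0.0471) and with scaling by library size alone (log2FC -0.36, FDR 0.00595). The difference between Rplp0 and Rplp1 was not tested.

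The 4 members that did not pass the test from P6 to 8 weeks were Rplp1, Rps27, Rpl39l and Rps10. Rps27, a zinc finger protein of the small subunit, had 201, 239 and 299 CPM at P6, 147, 277 and 346 CPM at P15, and 153, 190 and 335 CPM at 8 weeks. Its log2FC was -0.25 (SE 0.122, FDR 0.0657), close to the threshold, and it passed under 11 alternatives, among them limma-voom (log2FC -0.27, FDR 0.047) and the fits without 8 weeks male 4 (log2FC -0.34, FDR 0.00458), without P6 male 4 (log2FC -0.32, FDR 0.0178) or without P15 female 2 (log2FC -0.29, FDR 0.0161). Rps10, a protein near the mRNA entry that is also mutated in Diamond-Blackfan anaemia, was at 2.14, 3.87 and 4.81 CPM at P6, 4.08, 5.34 and 7.07 CPM at P15, and 3.53, 4.07 and 5.92 CPM at 8 weeks. It was the only member with a positive log2FC over the span (0.14, SE 0.125, FDR 0.314). Its exons share 20.6% of their bases with RPS10-NUDT3, a readthrough gene on the same strand. Among members that did pass, the smallest falls were in Rpl30 (log2FC -0.33, FDR 0.00995) and Rpl10 (log2FC -0.37, FDR 0.00262).

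**Figure D4:**
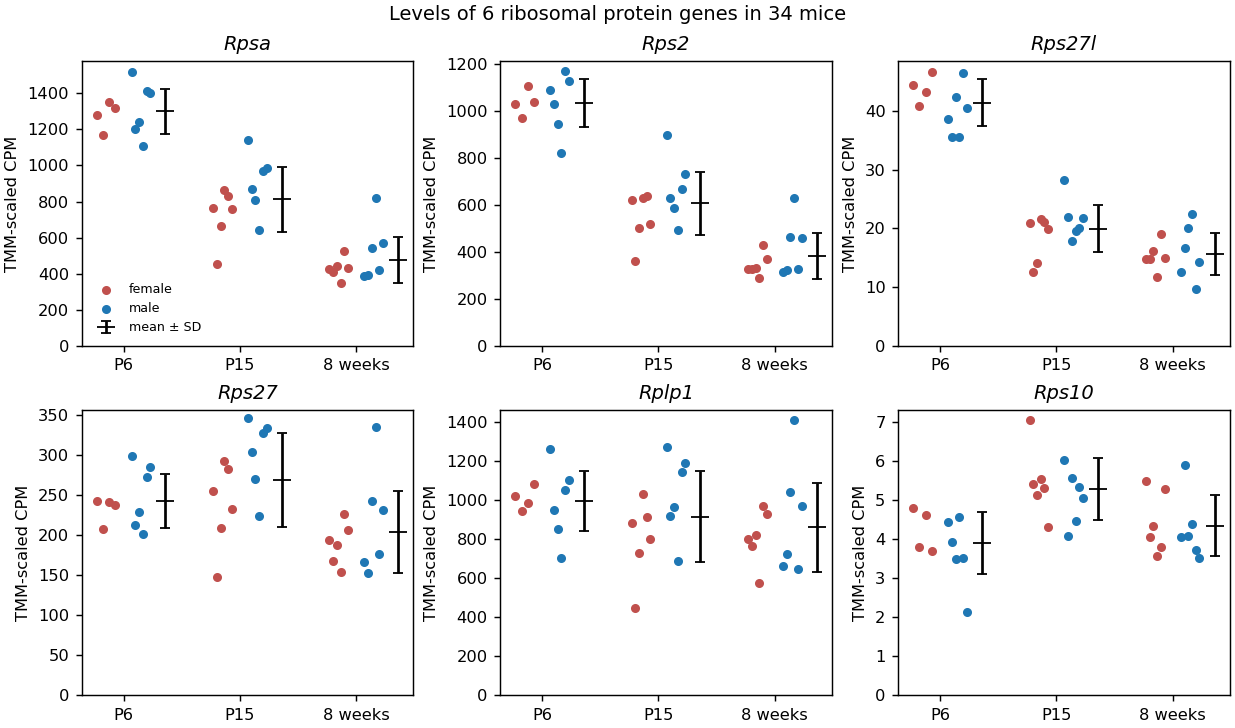
TMM-scaled CPM (vertical axes, from 0) of Rpsa, Rps2, Rps27l, Rps27, Rplp1 and Rps10 in each of 34 mice by age and sex, with the mean and SD of each age. In the 34 mice Rpsa, Rps2 and Rps27l do not overlap between P6 and 8 weeks, whereas the 3 ages overlap for Rps27, Rplp1 and Rps10.

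Both subunits fell, the small one by slightly more in sum. Of 31 small-subunit genes 29 were lower at 8 weeks than at P6, with a median log2FC of -0.86. Of 47 large-subunit genes 45 were lower, with a median of -0.76. Both counts stand beside 36.6% of all genes lower. Fragments on small-subunit genes per fragment on large-subunit genes were 0.713 to 0.732 at P6, 0.686 to 0.741 at P15 and 0.658 to 0.696 at 8 weeks. The P6 and 8-week ranges did not overlap, and P6 female 6, at 0.701, lay between them. Rpsa and Rps2 carried most of that shift, since without them the ratio was 0.612 to 0.628 at P6, 0.611 to 0.644 at P15 and 0.595 to 0.628 at 8 weeks.

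The span was made of an earlier step from P6 to P15 and a later one from P15 to 8 weeks, which share the P15 mice. The later step covers more days, and changes per day were not compared, here or for the lists below. From P6 to P15, 48 of 78 members were lower and 1 was higher, beside 31.4% of all genes lower and 30.4% higher. The median log2FC was -0.32 for the members and -0.01 for all genes. With the neural marker covariate it was -0.57 for the members (69 of 78 lower, beside 25.9% of all genes in that fit). The 1 that rose was Rps10 (log2FC 0.42, SE 0.126, FDR 0.00491), at the low level given above, and it did not pass with scaling by library size alone. Beside 4.85% of all genes lower beyond 2-fold, 0 members passed that test, and 0 did so at an unadjusted p under 0.05 or by limma-voom or DESeq2. The one nearest to it was Rps27l (log2FC -1.07, SE 0.117, FDR 0.631 in that test). In 3 members, Rps27l, Rps26 and Rpl4, every P15 mouse lay below every P6 mouse, beside 7.72% of all genes. Without P6 male 4 there were 13, beside 8.10%, and with P6 female 6 included 0, beside 5.98%.

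From P15 to 8 weeks, 73 members were lower and 0 higher, beside 23.9% and 24.0% of all genes, and no member was higher at an unadjusted p under 0.05 or by limma-voom or DESeq2. The median log2FC was -0.50 for the members and 0.02 for all genes. With the neural marker covariate it was -0.89 for the members (75 of 78 lower, beside 19.8% of all genes in that fit). In the 2-fold test 0 members passed (3.07% of all genes lower), and 0 did so at an unadjusted p under 0.05 or by the other tools. In none did the ages separate wholly (1.72% of all genes). All 78 members had a negative log2FC in this step, from -0.88 for Rplp0 to -0.08 for Rplp1. The fall was larger in the later step than in the earlier for 68 of 78 members, beside 29.2% of all genes. In both steps 48 members were lower, beside 13.3% of all genes, and 25 were lower in the later step but not the earlier, beside 10.6%. Mean CPM followed the order P6 over P15 over 8 weeks in 73 members, beside 31.6% of all genes. Since both steps use the P15 mice, these counts are descriptions with no test.

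Individual genes divided their fall differently between the steps. Rps27l had most of its fall before P15 (log2FC -1.07, then -0.35), while Rplp0 had most of it afterwards (-0.27, then -0.88). Rps15, of the decoding side of the 40S subunit, moved by -0.08 (FDR 0.611) and then by -0.54 (FDR 0.000366). Rps2 fell by similar amounts in both steps (-0.78, then -0.67). The differences between steps were not tested within a gene.

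Some members have known roles beyond the subunits. Rps6, the substrate of S6 kinase downstream of mTOR, had 278 to 417 CPM at P6, 167 to 357 CPM at P15 and 151 to 317 CPM at 8 weeks (log2FC over the span -0.87, FDR 7.25e-08). Rpl5 and Rpl11, which bind Mdm2 as a complex with 5S rRNA, had log2FC of -0.71 (FDR 9.72e-07) and -0.83 (FDR 5.13e-08). Rpl22, a protein of the large subunit with a known part in lymphocyte development, fell from a median of 254 to 144 CPM (log2FC -0.76, FDR 4.28e-08). Rps27a, a fusion of ubiquitin with a small-subunit protein, fell from 521 to 250 CPM (log2FC -0.96, FDR 2.22e-09).

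Ribosomal proteins outside the symbol rule moved mostly the same way. Of 7 such genes, among them Rack1, Fau and Rpl36al, 6 were lower at 8 weeks than at P6 and 0 higher. Those counts stand beside 36.6% of all genes lower and 37.8% higher, and the median log2FC of the 7 was -0.60. Rack1, a scaffold on the head of the 40S subunit, had 837 to 1170 CPM at P6 and 369 to 789 CPM at 8 weeks (log2FC -1.12, SE 0.118, FDR 5.23e-10). These ranges did not overlap, but they leave out P6 female 6, whose Rack1 value is not given here. Fau, a fusion of a ubiquitin-like protein with a small-subunit protein, had 425 to 684 CPM and then 295 to 661 CPM (log2FC -0.49, FDR 0.0006). Rpl36al, at 0.905 to 2.93 CPM in the 8-week mice, had a log2FC of -0.01 (FDR 0.968).

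Copies of ribosomal protein genes that are known mainly from testis or muscle were low. Rpl10l, a testis copy of Rpl10, had no fragment in any of the 34 mice, which at this depth allows up to 0.077 to 0.129 CPM per mouse (3 counts, counting error only). Rpl3l, a copy of Rpl3 known from striated muscle, had at most 5 counts at P6, 36 at P15 and 18 at 8 weeks, or a median of 0.0574, 0.212 and 0.146 CPM, and was not tested. Rpl39l, the testis copy of Rpl39, was at 0.598 to 2.89 CPM at P6, 0.0379 to 2.41 CPM at P15 and 0.126 to 2.03 CPM at 8 weeks (log2FC over the span -0.62, SE 0.44, FDR 0.2). Its spread among mice of 1 age was wider than any difference between ages.

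Rps27l changed against its parent. Per 100 fragments on Rps27, 12.9 to 19.7 fell on Rps27l at P6, 6.14 to 8.69 at P15 and 5.46 to 11 at 8 weeks. The P6 mice lay above all later mice, while P15 and 8 weeks overlapped. P6 female 6 had 18.2, within the P6 range. Rpl22l1 per 100 fragments of Rpl22 was 11.8 to 16.7 at P6, 8.73 to 20.1 at P15 and 13 to 26.8 at 8 weeks, with all ages overlapping.

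Levels of different members were compared per length, as RPKM over the union of annotated exons. That union was 499 bases for Rplp1, 630 for Rps15, 1659 for Rplp0 and 6270 for Rps15a. At P6 Rps15 had a mean of 567 CPM and Rplp0 of 1410 CPM, so the order by RPKM depends on these lengths. How much of each union is in the mature mRNA of these cells was not tested. The median member had 230 RPKM at P6, 196 at P15 and 137 at 8 weeks. At these ages 67, 63 and 51 of the 78 members were above 100 RPKM. Rplp1 was the highest at every age, with 1990 RPKM ± 305 (SD, n = 10) at P6, 1830 ± 463 (SD, n = 12) at P15 and 1720 ± 456 (SD, n = 12) at 8 weeks. Next came Rps15 and Rplp0, with means over the 3 ages of 782 and 647 RPKM, and Rpl23a was also among the 5 highest with 560 RPKM. At P6 Rps15 (900 RPKM) and Rplp0 (850 RPKM) were close, and at 8 weeks Rps15 (589 RPKM) was above Rplp0 (383 RPKM). The 5 members with the most counts took 15% to 16.7% of the family's fragments in every mouse.

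At the other end, Rpl39l (1.14 RPKM), Rps10 (1.95 RPKM), Rpl24 (2.13 RPKM), Rpl13a (16.1 RPKM) and Rps27l (31.4 RPKM) had the lowest means over the ages. Rpl24 and Rpl13a are general parts of the 60S subunit. Of the exon bases of Rpl24 47.0% are shared with Gm28037, and of Rpl13a 35.4% with other genes, among them Gm45713. These shared bases lie on the same strand, where the study's counting settings leave out a fragment that fits more than 1 annotated gene, so the levels of Rps10, Rpl24 and Rpl13a may be too low. By how much was not tested. Both were lower at 8 weeks. Rpl24 had 1.93 to 3.48 CPM at P6 and 1.02 to 2.20 CPM at 8 weeks (log2FC -0.67, FDR 0.000332). Rpl13a had 35.6 to 41.7 CPM and then 19.2 to 36.7 CPM (log2FC -0.63, FDR 2.12e-07).

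Ribosomal protein genes have many processed pseudogenes, and small nucleolar RNAs (snoRNAs, which guide the modification of ribosomal RNA) lie within their introns. The 78 members had 297 pseudogenes named after them, and 29 members held 56 snoRNA genes. From P6 to 8 weeks the median log2FC was -0.85 in the 21 members with 5 or more named pseudogenes and -0.75 in the 19 with none, and -0.74 in the 29 with a snoRNA gene inside and -0.84 in the 49 without. Under the study's counting settings, reads that map equally well to several places are not counted. The levels of single members may therefore miss reads shared with a pseudogene, and how many was not tested.

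The sexes were compared at each age. No member passed at P6, P15 or 8 weeks, beside 0.0511%, 0.0681% and 0.114% of all genes called, and no member passed for a sex by age interaction, beside 0.0% of all genes. DESeq2 and limma-voom called no member either. At an unadjusted p under 0.05 there were 0 members at P6, 6 at P15, 1 at 8 weeks and 0 for the interaction, against 7.1%, 18.2%, 2.94% and 11.8% of all genes. The lowest FDR of a member was 0.766, 0.255 and 1.0 at the 3 ages and 0.567 for the interaction.

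The members' median log2FC of males over females was 0.04 at P6 (60 of 78 positive), 0.26 at P15 (75 positive) and 0.20 at 8 weeks (77 positive), where 50.2%, 51.4% and 53.3% of all genes were positive. The members move together from mouse to mouse, so these counts are not independent. Single libraries moved each of them. Without 8 weeks male 4 the median at 8 weeks was 0.02 and 52 members were positive. Without P15 female 2 the median at P15 was 0.16 with 72 positive, and without P6 male 4 that at P6 was 0.09 with 74 positive. Of the 4 X-linked members, none passed at any age. At P15 their log2FC of males over females was 0.18 for Rps4x (SE 0.15), 0.25 for Rpl10 (SE 0.144), 0.27 for Rpl36a (SE 0.161) and 0.40 for Rpl39 (SE 0.191), with FDR of 0.269 or more. With age they fell by a median log2FC of -0.65 from P6 to 8 weeks, and 4 of 4 passed, beside 36.6% of all genes lower.

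Other genes of translation and ribosome production were counted in the same fit. The counts below stand beside 31.4% of all genes lower and 30.4% higher from P6 to P15, 23.9% and 24.0% from P15 to 8 weeks, and 36.6% and 37.8% over the span. Of 18 translation elongation factors and related TOP mRNAs, 18 were lower at 8 weeks than at P6, with a median log2FC of -0.87. Their largest falls were in the histone chaperone Nap1l1 (log2FC -1.43, SE 0.102), at 205 to 299 CPM at P6 and 70.6 to 105 CPM at 8 weeks, and in the nucleolar protein Npm1 (log2FC -1.30, SE 0.154), at 266 to 441 and 85.8 to 179 CPM. In the earlier step 15 of these 18 were lower (median -0.41), and in the later step 14 (median -0.37).

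Ribosome biogenesis factors, which process ribosomal RNA and assemble subunits, had most of their falls in the earlier step. Of 34 factors 30 were lower and 2 higher at P15 than at P6, with a median log2FC of -0.52. From P15 to 8 weeks 6 were lower, 7 higher and 21 not called, with a median of 0.04, near the shares over all genes, whereas 73 of 78 ribosomal protein genes were lower in that step. The largest falls over the span were in Nhp2 (log2FC -1.32, SE 0.113), a protein of H/ACA snoRNPs, and Rrs1 (log2FC -1.23, SE 0.074). The levels of Rrs1 were 31.8 to 49.6 CPM at P6, 14.4 to 19.5 CPM at P15 and 13.8 to 19.9 CPM at 8 weeks, so that it had reached its later level by P15. Sbds, which acts in the last maturation of the 60S subunit, rose, with 25.9 to 34.6 CPM at P6 and 45.6 to 60.6 CPM at 8 weeks (log2FC 0.80, SE 0.0638, FDR 8.93e-13), and Nop2 rose by a log2FC of 0.30 (FDR 0.00737).

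Mitochondrial ribosomal proteins, which serve the separate ribosome of mitochondria, also had most of their falls in the earlier step. Of 77 tested, 62 were lower and 2 higher in the earlier step (median log2FC -0.44), and 15 were lower and 7 higher in the later one (median -0.06), again near or below the shares over all genes. Over the span 68 were lower and 4 higher (median -0.48). Mrpl28 (log2FC -1.24, SE 0.102) and Mrpl54 (log2FC -1.08, SE 0.127) fell most, and Mrpl44 (log2FC 0.39, SE 0.101) and Mrps31 (log2FC 0.28, SE 0.0642) rose most. The difference in timing between lists was not tested.

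**Figure D5:**
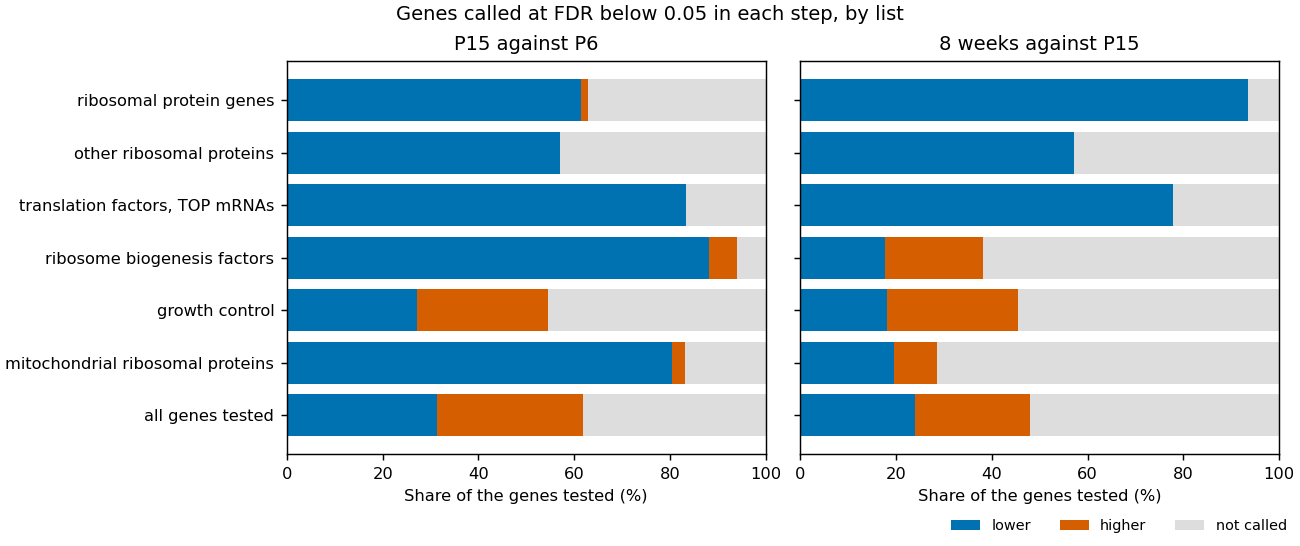
Share of the tested genes of each list (horizontal axis, %) that were lower, higher or not called at an FDR below 0.05, from P6 to P15 on the left and from P15 to 8 weeks on the right. Lower genes make up 61.5% of ribosomal protein genes in the earlier step and 93.6% in the later, while biogenesis factors and mitochondrial ribosomal proteins are mostly not called in the later step.

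Of 11 genes of growth control, 2 were lower, 4 higher and 5 not called at 8 weeks against P6, no larger shares than over all genes. Mycn, a Myc family transcription factor, went from 7.95, 26.1 and 40.6 CPM at P6 in the lowest, median and highest mouse to 0.218, 0.518 and 1.13 CPM at 8 weeks (log2FC -5.55, SE 0.364, FDR 8.52e-15). Myc itself rose, with 36.3 to 71.7 CPM at P6 and 97 to 210 CPM at 8 weeks (log2FC 1.6, SE 0.142, FDR 1.1e-11). Eif4ebp2, a translation repressor acted on by mTOR, fell (log2FC -0.83, SE 0.0771) and Rptor, a subunit of mTOR complex 1, rose (log2FC 0.76, SE 0.102). Larp1, which binds TOP mRNAs, had a log2FC of -0.01 (SE 0.066, FDR 0.874) and Mtor of -0.09 (SE 0.0663, FDR 0.203).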

How the data were processed

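The mRNA of immunopanned CD45+ve cells was sequenced from 35 mice, 1 library each. The authors made directional libraries (MGIEasy) and sequenced paired ends on an MGISEQ2000-RS, and fastp 0.20.0 is named in the submitters' processing notes. They aligned to GRCm38/mm10 with STAR and counted fragments by strand with featureCounts. The deposited values are raw counts per gene. The annotation release is not given in the sources used here.

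Names, coordinates and exon lengths came from GENCODE M21, which matched 55141 of 55401 identifiers. The main fit was edgeR 4.0.16 under R 4.3.3 (TMM scaling, robust quasi-likelihood, 1 mean per age and sex group, 34 mice). Age contrasts average both sexes, a call is a two-sided Benjamini-Hochberg FDR below 0.05 over 17612 genes, and glmTreat tests a change beyond 2-fold. The study used limma-voom with TREAT, and limma 3.58.1 (voom) and DESeq2 1.42.0 served as alternatives. The fit was tested on simulated data. CPM values carry the TMM factors. Summaries and plots used Python 3.11.15, pandas 2.3.3 and matplotlib 3.10.9.

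The members, lists and naming rule were chosen with earlier results of these data known. The rule names the 5 largest falls and rises past the FDR, the 5 highest and lowest members by RPKM, tissue-restricted copies with their parents, Rpsa and the stalk genes, members with known further roles, X-linked members, members past 2-fold, and the 2 largest falls and rises of each related list. Rps4l was meant to be included but is a pseudogene in that annotation. Rpl4, Rpl30, Rpl36al, Rpl22l1, Larp1 and Mtor lie outside the rule and were chosen after their values were seen. Some genes the rule names are not reported here. Floors cover counting error only, since PCR copies were not told apart. The closest of 85 pairs of mice of the same group had a chi-square of 13 per gene, so no library was counted as a copy of another.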

Additional observations from a re-analysis of the deposited data

Results flagged for a closer look

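Over 36 groups of 4 to 10 mice the highest and lowest values were compared with their neighbours by Dixon's criterion, and 6 stood apart. Chance flags about 1 in 20 groups. Most of the groups were genes measured in the same 10 P6 mice, so they are not independent.

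In P15 males the lowest share of fragments on ribosomal protein genes was 2.67% (P15 male 4), with the next at 3.24%. Among all P6 mice the lowest share was 3.44% (P6 male 4), with the next at 3.97%. The lowest P6 levels of Rpl22 (216 CPM against 244 in the next) and Rpl39 (119 CPM against 159) were also in P6 male 4. The lowest Rps10 level at P6 was 2.14 CPM (P6 male 6) against 3.5 in the next. The highest Rpl39l level at P6 was 2.89 CPM against 1.35 in the next.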

How the results depend on the processing

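Over all counts, medians and shares, 300 values under the alternatives kept their direction and their side of the threshold. With scaling by library size alone, 0 members were higher at P15 than at P6 and 17 were lower beyond 2-fold at 8 weeks. With DESeq2 that last count was 5. Without a filter on low counts, 2 members were higher at P15 than at P6 and 1 at 8 weeks. With the neural marker covariate, 38 members were lower beyond 2-fold at 8 weeks, and the median log2FC was -0.57 from P6 to P15, -1.47 from P6 to 8 weeks and -0.89 from P15 to 8 weeks. The shares over all genes beyond 2-fold under these alternatives are not given here, and the cause of these changes was not tested. With 1 mouse left out in turn (each P6 female, and P6 male 4, P15 female 2 or 8 weeks male 4, the last 3 chosen after seeing the data), 40 to 55 members were lower at P15 than at P6, 74 to 76 at 8 weeks than at P6 with 8 to 12 beyond 2-fold, and 72 to 75 at 8 weeks than at P15. Among these leave-outs, non-overlap was counted only without P6 male 4, P15 female 2 or 8 weeks male 4. Members whose ages did not overlap then numbered 3 to 13 from P6 to P15, beside 7.72% to 8.28% of all genes. From P6 to 8 weeks they numbered 17 to 62, beside 14.8% to 17.2%. With all 35 mice 36 members were lower at P15 than at P6, and those whose ages did not overlap (counted so after seeing the data) were 0 from P6 to P15 and 3 from P6 to 8 weeks. Among named genes, Rpl24 did not pass with the covariate (log2FC -0.76, FDR 0.0905), Rplp1 and Rps27 passed under 15 settings in all, and no log2FC of a named gene from P6 to 8 weeks turned sign. Among the members tested, Rpl39l had the fewest counts, with 23 to 114 counts per mouse at P6 and as few as 1 at P15.

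Mice carry numbers within their groups in the labels. With this number as a replicate block, 52, 75 and 73 members were lower in the comparisons of P15 with P6, 8 weeks with P6 and 8 weeks with P15, with 9 beyond 2-fold at 8 weeks against P6. Same-numbered mice are different animals and did not deviate together, with correlations from -0.54 to 0.69 and a median of 0.03 over 80 pairs, so the numbers do not pair them.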
